A study of Saccharomyces cerevisiae with 43 samples.

Results

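The comparison described here sets budding yeast cells that had been through salt stress and recovery against cells that had not, 10 min after both met hydrogen peroxide. It rests on 6 of 43 spotted 2-colour arrays, all 6 on the first of 2 array designs. They were chosen by their labels alone, as the 10 min H2O2 arrays of the first design in BY4741, a common haploid laboratory strain. Pretreated cells (3 arrays) grew in YPD for 3 doublings, spent 60 min in 0.7 M NaCl and 240 min in fresh medium without stress, and then received 0.4 mM H2O2 for 10 min. Naive cells (3 arrays) grew for 3 doublings in YPD and received the same dose for the same time. Each array gives a log2 ratio of treated cells over 0 min cells: recovered cells for the pretreated arrays, untreated cells for the naive arrays. The measure is therefore a difference between 2 responses, pretreated minus naive, and a difference of 1 means a 2-fold stronger response. The question is whether a past mild stress alters how fast or how far cells respond to a different one. None of the 43 arrays followed H2O2 after a mock treatment, so the salt itself, the handling and the added growth time cannot be told apart in this comparison.

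Yeast meets peroxide with enzymes that destroy it and with small thiol molecules that keep proteins reduced. The transcription factor Yap1, which peroxide oxidizes and which then collects in the nucleus, drives many of the thiol and reductase genes, and Msn2 and Msn4 drive a general stress programme that many stresses share, high salt among them. That programme includes the storage carbohydrates trehalose and glycogen, and genes for making ribosomes fall while it is on.

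Of 5604 genes and features, 5241 had a value on at least 2 arrays of each group and were tested, and 3860 had a value on all 6. The array SDs of the log2 ratios were 0.844, 0.632 and 0.991 on pretreated arrays 1 to 3 and 0.662, 0.681 and 0.829 on naive arrays 1 to 3. Pretreated replicate 2 thus had the narrowest spread of its group and replicate 3 the widest. Across genes, arrays correlated at 0.741 to 0.836 within the pretreated group, at 0.608 to 0.808 within the naive group and at 0.618 to 0.819 between groups, so the groups do not separate in the overall profile. Replicate 3 of both groups came from slides labelled as print series 8, and replicates 1 and 2 of both from series 9. A ratio holds no level, so the strain could not be checked by the level of its markers. Of the 4 loci deleted in BY4741 only HIS3 had a row.

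The response of 15 genes differed (adjusted p under 0.05, 0.286% of those tested), 13 higher in pretreated cells (0.248%) and 2 lower (0.0382%). The higher genes belong to glycogen and trehalose synthesis (GLC3, TPS2), peroxide removal (TSA2, CCP1), glutathione synthesis (GSH1), reductases and dehydrogenases (AAD6, ADH5) and protein disaggregation in mitochondria (HSP78), with RTK1, SNG1, YNL134C, YML131W and YIL165C. The lower genes were USO1 and DMA1. Of the 15, 14 had a value on all 6 arrays, and in all 14 the groups did not overlap, as the choice by difference on these arrays favours. Of all genes with 6 values, 6.76% were higher and 9.59% lower without overlap. At an unadjusted p under 0.05 there were 511 genes (9.75%), of which 292 genes (5.57%) were higher and 219 (4.18%) lower. The median difference of all tested genes was −0.07, and 41% of them lay above 0.

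The count rests on the spread pooled over all 32 arrays of the design and on single libraries. Without pretreated replicate 1 or 3 it was 1 or 0, without pretreated replicate 2 it was 93, and the 6 arrays alone gave 0 (413 at an unadjusted p under 0.05). With the print series as a block it was 45, among them all 15. The 15 differences had the same sign within print series 9, and so did the 14 that had a value in series 8, where 1 array stands against 1. For the 14 genes whose groups did not overlap this sign was fixed in advance, so it adds no evidence about the print series. With all arrays scaled to a common spread 3 genes passed, 3 higher and 0 lower.

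**Figure D1:**
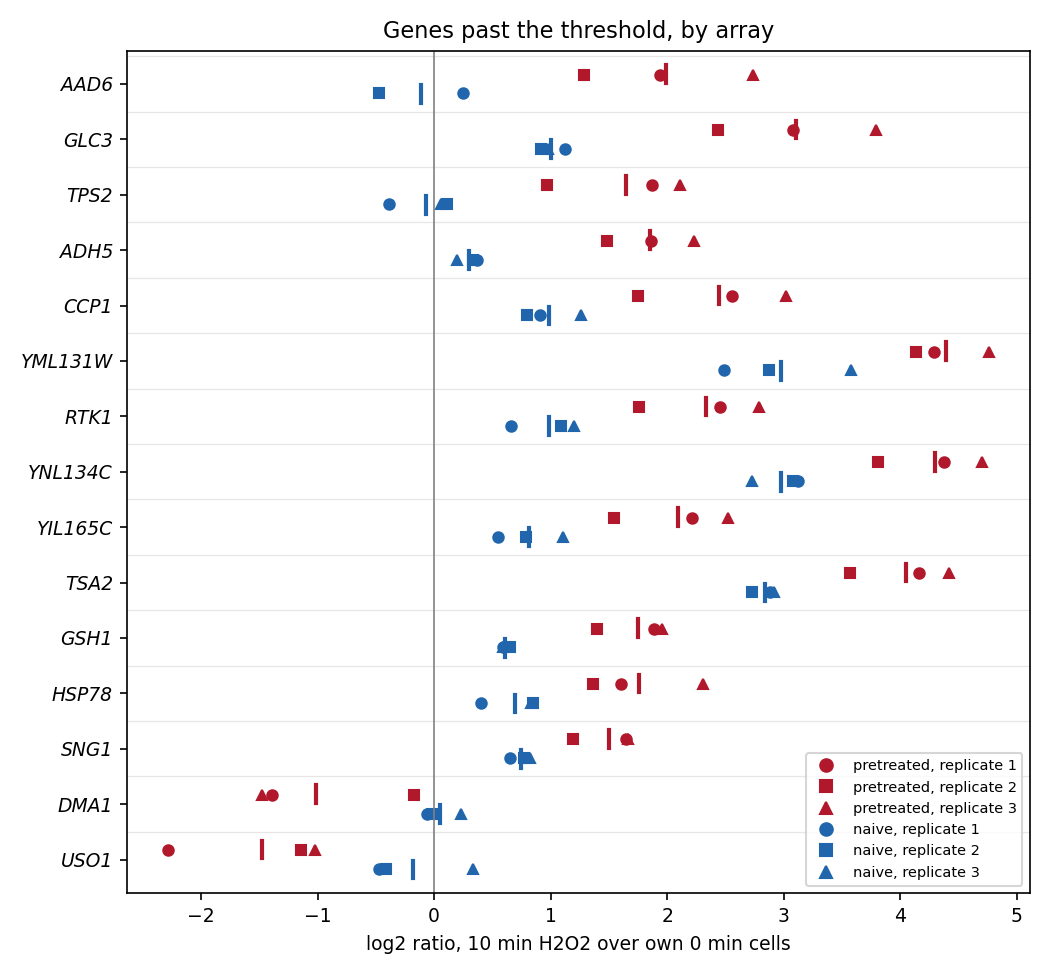
Log2 ratio of each array at 10 min H2O2 for the 15 genes whose response differed, pretreated arrays (red, upper row of each gene) and naive arrays (blue, lower row), with a symbol for each replicate and a vertical tick at the mean. AAD6 has 2 naive values. In all 13 higher genes the pretreated values lie right of the naive ones, and pretreated replicate 2 (square) is the lowest of its group.

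Among the storage carbohydrates, GLC3, which encodes the glycogen branching enzyme, had the largest difference of the genes that passed with values on all 6 arrays. It read 3.08, 2.44 and 3.79 on the pretreated arrays and 1.12, 0.92 and 0.98 on the naive arrays. The lowest pretreated array was thus above the highest naive one by more than the naive arrays differed among themselves. The difference was 2.10 ± 0.32 (SE; adjusted p = 0.0064), and within print series 9 and 8 it was 1.74 and 2.81. GLC3 was above 0 on all naive arrays too, so the groups differed in the size of the response and not in its direction.

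TPS2, the phosphatase that completes trehalose synthesis, differed in another way. It read 1.87, 0.97 and 2.11 on pretreated arrays and −0.39, 0.11 and 0.06 on naive arrays. Naive cells thus showed a ratio near 0 at this time and pretreated cells a clear one, a difference of 1.72 ± 0.33 (adjusted p = 0.018).

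All 9 tested genes of the trehalose list lay above 0 in the difference (median 0.72, against −0.07 for all genes). With arrays left out the median lay between 0.525 (without replicate 1 of both groups, 7 of 8 above 0) and 1.09 (without naive replicate 3). Of the 9 genes, 1 passed. NTH1, the neutral trehalase that breaks trehalose down, came next at 1.22 ± 0.27 (adjusted p = 0.053), with 1.48, 0.90 and 1.84 on pretreated arrays and −0.26, 0.26 and 0.56 on naive arrays. Its groups did not overlap, which held in the same direction for 6.76% of all genes valued on all 6 arrays. TSL1, a regulatory subunit of the trehalose synthase, had a difference of 1.85 (adjusted p = 0.24) from 2 arrays a group, TPS1, the synthase itself, 0.72, and UGP1, which makes the UDP-glucose that both storage pathways use, 0.64. PGM2, the phosphoglucomutase upstream, was at 1.31 ± 0.76 and its groups overlapped.

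In the glycogen list 7 of 10 tested genes lay above 0, with a median of 0.16. With single arrays left out it lay between 0.17 (without pretreated replicate 3) and 0.475 (without pretreated replicate 2, with 6 of 8 genes above 0). GSY2, the main glycogen synthase, read 1.31, 0.62 and 1.80 on pretreated arrays and −0.60, 0.17 and 0.33 on naive arrays, a difference of 1.28 ± 0.34 (adjusted p = 0.13). The breakdown enzymes had differences of 0.20 (GPH1, glycogen phosphorylase) and 0.11 (GDB1, the debranching enzyme), each from 2 arrays a group with overlap between the groups, and their signs turned under 1 alternative each. GSY1, the minor synthase, had too few values for a test, and HXK1, a hexokinase that feeds both pathways, was at 0.76 ± 0.72.

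Of the enzymes that remove peroxide directly, TSA2 and CCP1 passed. TSA2, a cytosolic peroxiredoxin, read 4.16, 3.57 and 4.42 on pretreated arrays and 2.88, 2.73 and 2.92 on naive arrays, a difference of 1.21 ± 0.21 (adjusted p = 0.012). CCP1, the cytochrome c peroxidase of mitochondria, read 2.56, 1.75 and 3.02 on pretreated arrays and 0.91, 0.80 and 1.26 on naive arrays, a difference of 1.45 ± 0.30 (adjusted p = 0.043). Both genes were above 0 on every array, and the pretreated arrays lay above the naive ones in each.

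The list of catalases and peroxidases held 10 tested genes with a median difference of 1.17, and 8 lay above 0. Without pretreated replicate 3 the median was 0.61 with 5 of 8 above 0, and without replicate 1 of both groups it was 0.76. CTT1, the cytosolic catalase, had a larger difference than TSA2 and CCP1 but did not pass: it read 3.99, 3.44 and 5.21 on pretreated arrays and 1.87, 1.08 and 4.24 on naive arrays (1.82 ± 0.53, adjusted p = 0.18). Naive replicate 3 lay above pretreated replicates 1 and 2, and without it the difference was 2.74 (adjusted p = 0.00303). CTT1 passed under 6 of the 19 alternative settings run, among them the print series as a block (adjusted p = 0.015). Over the 19 its difference ranged from 1.16 to 2.74. Other genes that did not pass also did so under some, such as NTH1 under 9 and AAD4 under 5. SRX1, the sulfiredoxin that repairs oxidized peroxiredoxins, had 2 values a group (6.22 and 8.53 pretreated, 5.42 and 5.30 naive), and CTA1, the peroxisomal catalase, also 2 (1.05 and 3.61 pretreated, 0.15 and 0.99 naive). Neither passed (adjusted p = 0.37 and 0.46). TSA1, the main cytosolic peroxiredoxin, had overlapping values, with 1.04 and 0.72 on pretreated arrays 1 and 2 and 0.85 and 1.06 on naive arrays 1 and 2. AHP1, another peroxiredoxin, was at 0.17 ± 0.32.

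**Figure D2:**
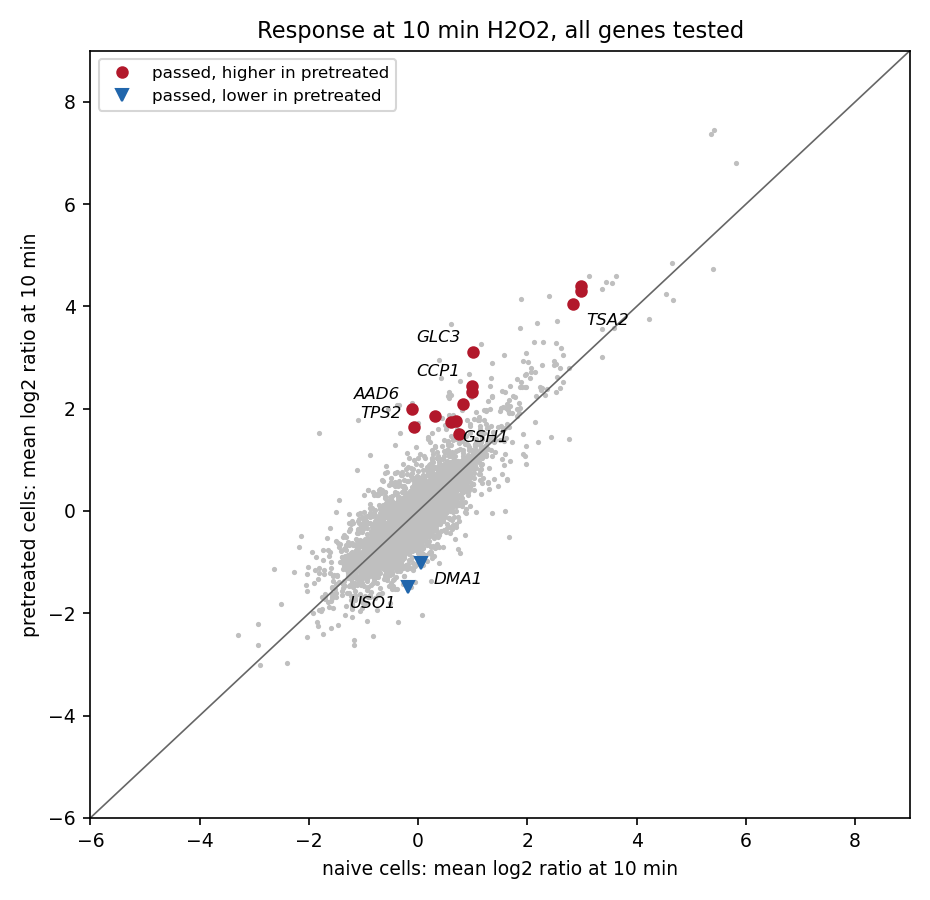
Mean log2 ratio at 10 min H2O2 in pretreated cells (vertical axis) against naive cells (horizontal axis) for the 5241 tested genes (grey), with the 13 genes that passed higher in red and the 2 that passed lower in blue. The line marks equal responses. The called genes do not lie at the ends of the response: GLC3 averaged 3.10 in pretreated cells and 1.01 in naive cells.

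Glutathione and thioredoxin genes showed a mixed picture. GSH1 encodes the enzyme of the first and limiting step of glutathione synthesis. It read 1.89, 1.40 and 1.96 on pretreated arrays and 0.59, 0.65 and 0.59 on naive arrays, a difference of 1.14 ± 0.20 (adjusted p = 0.012). Its naive arrays had an SD of 0.0346, the smallest among the 15 called genes. It was the only one of 21 tested genes in its list to pass. Of these, 17 lay above 0, and the list median was 0.24 (0.16 without naive replicate 1 and 0.12 without naive replicate 3). GRX2, a glutaredoxin, was next at 0.90 ± 0.21 (adjusted p = 0.078), with 3.00, 2.43 and 3.29 on pretreated arrays and 2.06, 2.27 and 1.68 on naive arrays. TRR1, the thioredoxin reductase, and GLR1, the glutathione reductase, had differences of 0.64 ± 0.20 and 0.47 ± 0.16 (adjusted p = 0.22 and 0.27). TRX2, the thioredoxin that Yap1 controls, overlapped between the groups, at 2.48, 1.95 and 2.82 on pretreated arrays and 1.89, 2.16 and 1.88 on naive arrays (0.44 ± 0.24). The superoxide dismutases SOD1 and SOD2 had 0.31 and 0.71, and ZWF1, the first enzyme of the NADPH-making pentose phosphate pathway, 0.56. None of the 3 passed.

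Reductases and dehydrogenases made up another block. AAD6, a putative aryl-alcohol dehydrogenase, read 1.94, 1.29 and 2.74 on pretreated arrays and 0.25 and −0.47 on naive arrays 1 and 2, with no value on naive array 3 (2.10 ± 0.39, adjusted p = 0.017). AAD4, a closely related gene, read 1.68, 1.04 and 2.75 on pretreated arrays and 0.26, 0.24 and 0.83 on naive arrays (1.38 ± 0.36, adjusted p = 0.13). Near-identical family members can share signal on a spotted array, so the values of AAD6 and AAD4 cannot be assigned to one gene with certainty.

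ADH5, an alcohol dehydrogenase, read 1.86, 1.48 and 2.23 on pretreated arrays and 0.37, 0.33 and 0.20 on naive arrays (1.56 ± 0.28, adjusted p = 0.017). YML131W and YNL134C, which have a systematic name only in the gene table used, had the highest ratios of the called genes. YML131W averaged 4.40 ± 0.32 in pretreated and 2.98 ± 0.55 in naive cells (SD, n = 3 each; difference 1.42), and YNL134C 4.30 ± 0.45 in pretreated and 2.98 ± 0.21 in naive cells (difference 1.32). Of the 21 tested genes on the list of oxidoreductases of the Yap1 response 20 lay above 0, and 1 passed. The median was 0.62 (0.37 without replicate 1 of both groups and 0.41 without naive replicate 2). On 12 with all values 6 were higher without overlap and 0 lower, against 6.76% and 9.59% of all genes. The list's lowest pretreated array median was 0.825 (replicate 2), and its highest naive one 0.805 (replicate 3). GRE2, a methylglyoxal reductase, and OYE3, an NADPH oxidoreductase, had 1.50 and 1.63 (adjusted p = 0.14 and 0.38), each with 2 naive values. FLR1, a drug efflux transporter, was higher without overlap (2.73, 2.45 and 3.95 pretreated; 1.23, 1.13 and 2.38 naive; difference 1.46, adjusted p = 0.14). YHK8 had the largest difference among genes valued on all 6 arrays, 2.78, 2.32 and 3.73 on pretreated arrays and −0.06, 0.14 and 1.06 on naive arrays (2.56 ± 0.61), yet its adjusted p was 0.11.

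The remaining higher genes were 4. RTK1, a putative protein kinase, averaged 2.33 in pretreated and 0.98 in naive cells (1.35 ± 0.27), and YIL165C 2.09 in pretreated and 0.82 in naive cells (1.27 ± 0.26). SNG1, a membrane protein tied to drug resistance, averaged 1.50 in pretreated and 0.75 in naive cells (0.75 ± 0.16). HSP78, the disaggregase of the mitochondrial matrix, read 1.60, 1.36 and 2.31 on pretreated arrays and 0.40, 0.85 and 0.83 on naive arrays (1.06 ± 0.23, adjusted p = 0.049). All 4 genes were above 0 on all 6 arrays.

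The general stress list, written from the genes that most stresses induce together, lay mostly above 0. Of 58 tested genes 56 lay above 0, against 41% of all genes. The median was 0.72, and 3 passed (GLC3, TPS2 and HSP78). At an unadjusted p under 0.05, 27 were higher and 0 lower, against 5.57% and 4.18% of all genes. On 36 genes with all values 13 (36.1%) were higher without overlap, against 6.76% of all genes. The list's median on single arrays was 1.74, 1.30 and 2.27 in pretreated cells and 0.80, 0.95 and 1.32 in naive cells, so pretreated replicate 2 and naive replicate 3 met. The median stayed above 0 under all 19 alternatives run, between 0.47 (without naive replicate 1) and 0.91.

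Single genes of this list spread widely. HSP12, a membrane-protecting stress protein, had the largest difference of all tested genes, 3.33 ± 0.88, and did not pass (adjusted p = 0.14). It read 1.04, 0.48 and 3.04 on pretreated arrays and −0.64 and −2.98 on 2 naive arrays, which lie far apart. On the naive array of the second design HSP12 read 0.50. DDR2, a stress gene of unknown role, was at 6.54, 6.31 and 7.58 on pretreated arrays and 4.76, 5.86 and 6.81 on naive arrays, with overlap (1.00 ± 0.83). GAD1, glutamate decarboxylase, DCS2, a regulator of mRNA cap breakdown, ALD3, an aldehyde dehydrogenase, and CYC7, a cytochrome c isoform, had differences of 2.42, 2.23, 1.69 and 1.35 on 2 naive arrays each, with adjusted p of 0.24, 0.11, 0.28 and 0.43.

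Chaperone genes varied in their difference. In the list of small heat-shock proteins and disaggregases, HSP78 was the one of 10 tested genes that passed. The median of 0.47 kept its sign under 15 of the 19 alternatives. It was −0.22 without naive replicate 1 and −0.06 without naive replicate 2, where 7 genes remained in each case. With all arrays kept, the 6 genes with a value on every array had a median of −0.055. HSP104, the cytosolic disaggregase, read 1.86, 1.30 and 2.36 on pretreated arrays and 1.17, 1.12 and 1.06 on naive arrays (0.72 ± 0.28, adjusted p = 0.39). The small heat-shock proteins HSP26 and HSP42, which hold unfolded proteins, had high ratios in both groups: HSP26 read 3.40, 3.06 and 4.25 on pretreated arrays and 3.19, 3.36 and 4.22 on naive arrays, and HSP42 3.71, 3.75 and 5.28 on pretreated and 4.00, 4.39 and 5.21 on naive arrays. Their differences were −0.02 ± 0.39 and −0.29 ± 0.38. BTN2, which sorts misfolded proteins, was at −0.53 ± 0.37, and SSA4, an inducible Hsp70, at 0.50 ± 0.49. HSP30, a plasma membrane heat-shock protein, had 2.03 ± 0.75 on 2 pretreated arrays. UBI4, the stress polyubiquitin gene, had 0.80 ± 0.27 without overlap, and none of these passed. Over 37 tested genes of the Hsp70 and Hsp90 list the median was 0.01 with 19 above 0, and over 44 of the proteasome list 0.05 with 30 above 0, medians that kept their sign under 11 and 16 of the 19 alternatives.

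**Figure D3:**
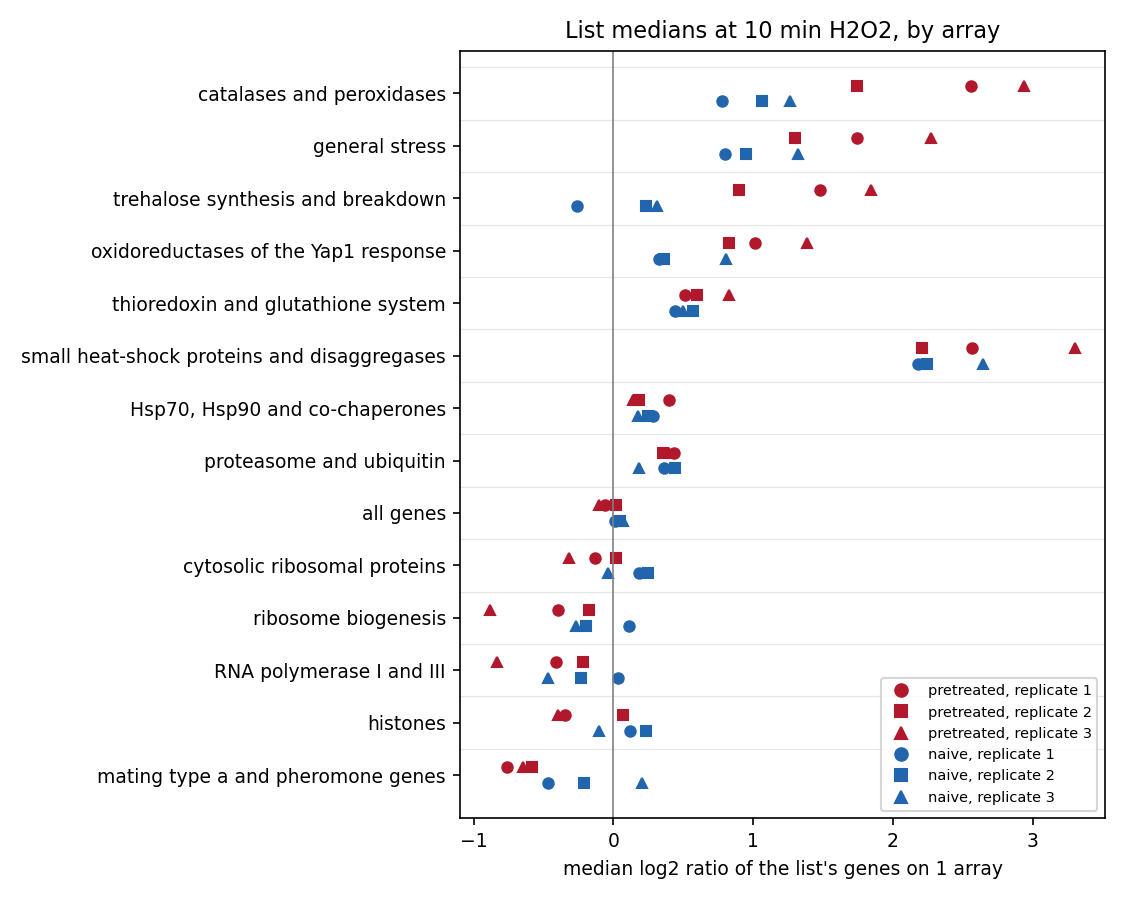
Median log2 ratio at 10 min H2O2 of the genes of 13 lists and of all genes with a value on all 6 arrays, one symbol per array, pretreated (red, upper) and naive (blue, lower). The pretreated medians of catalases and peroxidases (1.74 to 2.94), trehalose and Yap1 oxidoreductase genes lie above every naive median, those of the Hsp70 and proteasome lists overlap with the naive ones, and those of ribosomal proteins are lower on 2 of 3 arrays than any naive one.

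No gene on the list of stress regulators passed. YAP1 read −0.17, 0.22 and 0.79 on pretreated arrays and −0.30, −0.08 and 0.08 on naive arrays (0.38 ± 0.23, adjusted p = 0.67). MSN2 was slightly above 0 on all 3 pretreated arrays (0.39, 0.01 and 0.18) and slightly below on all 3 naive arrays (−0.33, −0.04 and −0.07), a difference of 0.34 ± 0.23 (adjusted p = 0.70). MSN4 had 0.53, SKN7, which acts with Yap1 on peroxide genes, −0.06, HSF1, the heat-shock factor, −0.36, and RPN4, the proteasome gene activator, 0.66. None passed. CIN5, a transcription factor related to Yap1, was the highest of the list, at 4.36, 4.26 and 5.15 on pretreated arrays and 3.86, 3.10 and 3.90 on naive arrays (0.97 ± 0.26, adjusted p = 0.13). TPK2 and TPK3 encode catalytic subunits of protein kinase A, which holds Msn2 out of the nucleus. TPK2 had a difference of 0.81 ± 0.34 with overlap (adjusted p = 0.43), and TPK3 −0.82 ± 0.24 without overlap (adjusted p = 0.19). YAK1, a kinase that acts against growth, was at 0.69 ± 0.26. Of 30 tested genes in the list 21 lay above 0, with a median of 0.20, and of 0.04 without naive replicate 1.

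The osmotic and glycerol list had a median of 0.09, with 20 of 31 above 0 and 0 passed, and kept its sign under 17 of the 19 alternatives (−0.03 without naive replicate 1). GPD1, the glycerol-making dehydrogenase, averaged 2.44 ± 0.38 in pretreated and 1.68 ± 0.26 in naive cells (SD, n = 3 each; difference 0.76 ± 0.22 SE, adjusted p = 0.18). GPP2, the phosphatase after it, was at 0.08 ± 0.22 and ENA1, the sodium pump, at −0.03 ± 0.28, with ratios below 0 on all 6 arrays. GPP2 and ENA1 are strongly salt-induced, with means of 5.75 and 4.47 at 30 min of NaCl.

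The 2 genes that passed lower were USO1 and DMA1. USO1, which tethers vesicles on their way to the Golgi, read −2.28, −1.14 and −1.02 on pretreated arrays and −0.47, −0.41 and 0.33 on naive arrays (−1.30 ± 0.28, adjusted p = 0.049). DMA1, a ubiquitin ligase of spindle and septin control, read −1.39, −0.17 and −1.48 on pretreated arrays and −0.06, −0.02 and 0.23 on naive arrays (−1.06 ± 0.23, adjusted p = 0.049). For DMA1, pretreated replicate 2 was close to the naive arrays and the other 2 pretreated arrays were far below them.

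Ribosome biogenesis genes, which build and process ribosomal RNA, lay below 0 in 143 of 145 cases (median −0.37), and 0 passed. At an unadjusted p under 0.05, 14 were lower and 0 higher, against 4.18% and 5.57% of all genes. On 130 with all values, 36 (27.7%) were lower without overlap, against 9.59% of all genes. Of the 10 lowest non-overlapping genes, 5 belong to this list: RRP36, UTP18, TSR1, BFR2 and MAK16, all factors of ribosomal RNA processing. RRP36 read −0.57, −0.61 and −2.95 on pretreated arrays and 0.31, 0.11 and 0.26 on naive arrays, a difference of −1.60 ± 0.48 (adjusted p = 0.20) in which 1 array holds the extreme. UTP18 read −1.18, −0.44 and −0.93 on pretreated arrays and 0.08, −0.11 and 0.74 on naive arrays. TSR1 read −1.97, −0.37 and −0.98 on pretreated arrays and 0.00, −0.22 and −0.06 on naive arrays. BFR2 and MAK16 had −0.98 and −0.99. NSR1, a nucleolar protein below 0 on all 6 arrays, had −0.56 ± 0.40 with overlap. The list's medians by array were −0.40, −0.18 and −0.89 in pretreated cells and 0.11, −0.20 and −0.27 in naive cells, so pretreated replicate 2 lay among the naive arrays.

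Cytosolic ribosomal protein genes, which encode the ribosome's own proteins, showed a smaller and more even difference. Of 135 tested, 130 lay below 0, with a median of −0.27, and 0 passed. Of 131 with all values, 43 (32.8%) were lower without overlap, against 9.59% of all genes. Paralogous ribosomal protein genes can share signal, so single members are uncertain. RPL29, a single-copy gene, read −0.08, −0.10 and 0.16 on pretreated arrays and 0.48, 0.85 and 0.42 on naive arrays (−0.59 ± 0.29). RPS13 and RPL3, also single-copy, were at −0.09 and −0.12 with overlap. Subunits of RNA polymerases I and III had a median of −0.30 over 25 genes, with 23 below 0. RPC19, shared by both polymerases, was −0.19, −0.07 and −0.35 on pretreated arrays and 0.43, 0.38 and 0.54 on naive arrays, while RPA12 had −0.35 with overlap. The median differences of ribosome biogenesis, ribosomal proteins and the polymerases stayed below 0 under all 19 alternatives, between −0.54 and −0.18, −0.37 and −0.19, and −0.45 and −0.14. The values nearest 0 for ribosome biogenesis and the polymerases came without pretreated replicate 3, where 17 of 144 and 4 of 22 genes lay above 0.

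Cell cycle and mating genes also lay mostly below 0, and none passed. Histones lay below 0 in 10 of 11 cases (median −0.41). HTA1, a histone H2A gene, read −0.36, −0.03 and −0.36 on pretreated arrays and 0.24, 0.30 and 0.13 on naive arrays (−0.47 ± 0.24), and HTB1, its H2B partner, had −0.56. Genes of G1/S and of G2/M and M/G1 had medians of −0.27 and −0.18, with 27 of 32 and 28 of 34 below 0. Without replicate 3 of both groups the first was −0.17. The second was −0.11 without pretreated replicate 3 and −0.30 without pretreated replicate 2. CLN2, a G1 cyclin, had −0.55 ± 0.27 without overlap, TEM1, a GTPase of mitotic exit, −1.03, and PCL9, a cyclin of early G1, −1.02, both with overlap. SCW11, a cell wall enzyme of daughter cells, went the other way: its ratios were less negative in pretreated cells, with −1.52, −1.69 and −1.13 on pretreated and −1.98, −2.01 and −2.18 on naive arrays (0.61 ± 0.20, adjusted p = 0.26). Genes of mating type a and pheromone response had a median of −0.41 (−0.24 without replicate 3 of both groups), 13 of 15 below 0, with MFA2, which encodes the a-factor pheromone, at −0.60 and AGA1, an agglutinin subunit, at −0.56. Of the 10 lowest non-overlapping genes, LAA2 (−1.17), YEL1 (−1.01) and CNN1 (−1.22) belong to no list used here, and in CNN1 only pretreated replicate 3 was below 0.

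Among further lists, respiration and the TCA cycle had a median of 0.09, glycolysis 0.08, amino acid synthesis −0.03, methionine −0.02, the iron regulon −0.05 and mitochondrial ribosomal proteins −0.01, and of these only glycolysis kept its sign under all 19 alternatives. ADH5 was the one gene among them that passed. ACO1, the aconitase, was at −0.08, −0.36 and 0.08 on pretreated arrays and −1.27, −0.82 and −0.98 on naive arrays (0.90 ± 0.22, adjusted p = 0.096). SDH2, the iron-sulfur subunit of succinate dehydrogenase, had 1.48 on 2 naive arrays (adjusted p = 0.11). The arginine genes CPA1 and ARG4 and the lysine gene LYS20 had differences of 1.07, 0.86 and 0.88 without overlap, and CCC1, the vacuolar iron transporter, 0.78. None of the 6 passed. ILV5, a branched-chain amino acid enzyme, had similar low ratios in both groups, −2.94, −2.25 and −3.82 on pretreated arrays and −3.01, −2.61 and −3.08 on naive arrays (−0.10 ± 0.31).

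The 13 higher genes were chosen by their difference at 10 min, which favours high pretreated and low naive means at that time. All 13 had larger naive means at 20 min than at 10 min. The counts of means given here were not made for all genes. At 20 min the pretreated mean was still above the naive mean in all 13, and at 40 min in 4, with 9 below. In 6 of the 13, the pretreated mean at 10 min was already at or above the naive mean at 20 min. TPS2, for example, averaged 2.91 in pretreated and 1.35 in naive cells at 20 min (3 arrays each), and 3.08 in pretreated and 2.68 in naive cells at 40 min (2 arrays each). GSH1 averaged 2.45 in pretreated and 1.37 in naive cells at 20 min, and at 40 min it read 2.70 on the 1 pretreated array with a value and 2.86 and 2.84 on the naive arrays. ADH5 ended in reverse order, with 2.76 in pretreated (3 arrays) and 0.87 in naive cells (2 arrays) at 20 min, and 1.84 in pretreated and 2.60 in naive cells at 40 min. Tested directly, the change of the difference between 10 and 20 min passed in 0 of 5014 genes (210, or 4.19%, at an unadjusted p under 0.05; lowest adjusted p 0.55). USO1 and DMA1 had nearly equal means at 20 min, −0.98 and 0.08 in pretreated cells and −0.82 and 0.11 in naive cells.

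**Figure D4:**
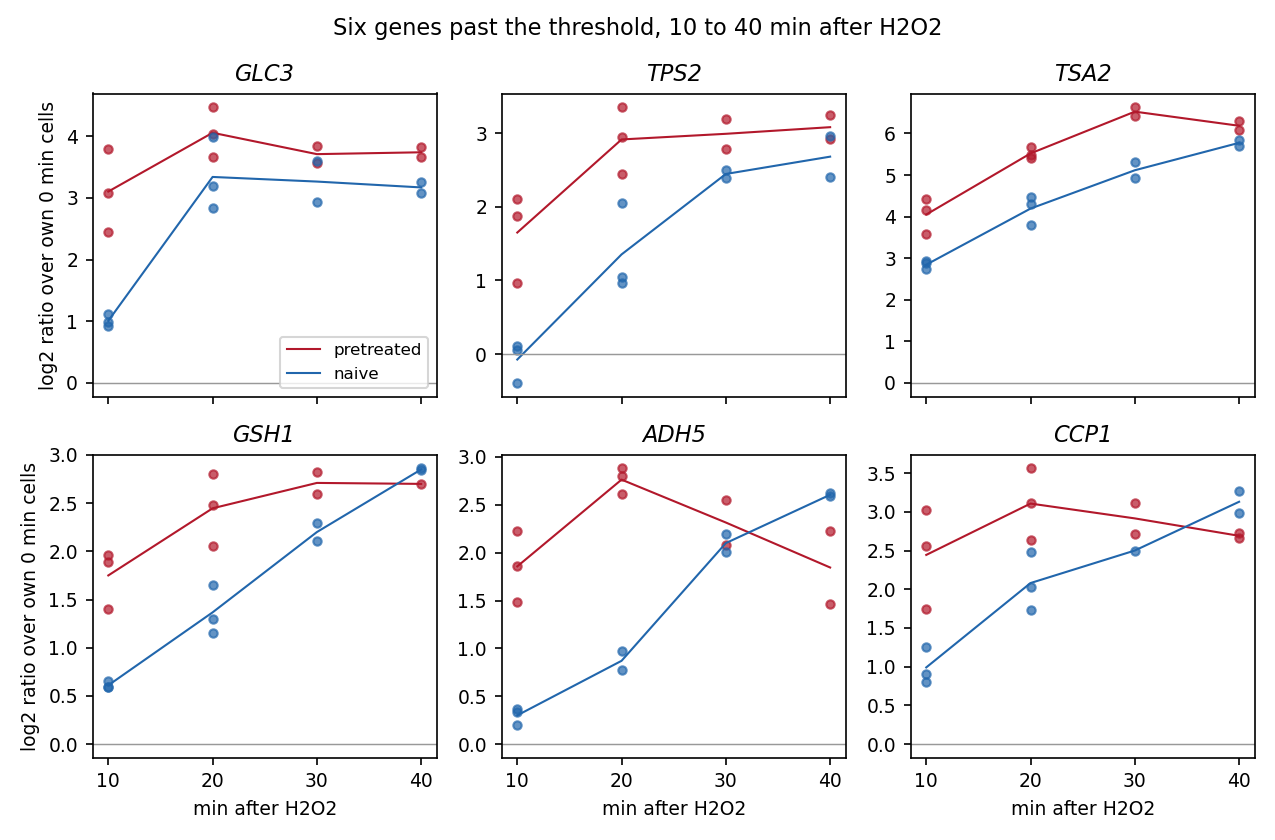
Log2 ratio over each group's own 0 min cells at 10, 20, 30 and 40 min after H2O2 for GLC3, TPS2, TSA2, GSH1, ADH5 and CCP1, pretreated (red) and naive (blue), with a point per array and a line through the means. All 6 panels start with pretreated above naive, and at 40 min the pretreated line is lower for ADH5, CCP1 and GSH1. GSH1 pretreated at 40 min and CCP1 naive at 30 min rest on 1 array.

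The 2 groups are measured against different 0 min cells, so the recovered state matters. After 240 min of recovery the 15 genes were close to untreated cells, with means between −0.34 (TPS2) and 0.23 (ADH5), and after a mock treatment between −0.30 and 0.13. Adding the recovered ratio to the pretreated response sets both groups against untreated cells. In this level difference all 15 kept their sign and 0 of 5237 genes passed (389, or 7.43%, at an unadjusted p under 0.05). The lowest adjusted p was 0.085, shared by GLC3 (1.97), TSA2 (1.41) and ADH5 (1.79). With the print series as a block 57 genes passed. Ribosomal proteins changed sign on this measure, with a median level difference of 0.09. Their median ratio was 0.37 after recovery from salt and 0.23 after a mock treatment. Other lists changed sign too, among them glycogen (−0.09), the stress regulators (−0.04) and the iron regulon (0.08). The histone list was at −0.03, with a median ratio of 0.34 after recovery from salt and 0.20 after a mock treatment. A constant dye effect does not cancel in the level difference. Ribosome biogenesis genes stayed at −0.42 and the general stress list at 0.62. After recovery from salt the general stress list itself was at −0.13, and after a mock treatment at −0.07.

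The 13 higher genes had different histories under salt. At 30 min of NaCl, 6 of the 13 had a mean above 1, among them TPS2 (4.88), YML131W (4.55) and GLC3 (3.71), and 7 did not, among them GSH1 (−0.14), ADH5 (−0.26) and SNG1 (0.06). The split is for 30 min only. ADH5 read 2.25 and 0.70 at 45 min of NaCl and 3.23 on the 1 array at 60 min. TSA2, also among the 7, read 1.35 and 1.45 at 45 min. On the NaCl arrays from 15 to 60 min GSH1 read at most 0.22 and SNG1 at most 0.32. Genes with a mean above 1 at 30 min of NaCl and genes without were thus both among the 13.

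The second array design gives separate values with 1 array per condition, so no test was possible. Its cells grew for more doublings before treatment, and both its BY4741 arrays at 10 min were set against untreated cells. All 13 higher genes read higher in memory cells, as its labels call the pretreated ones, than in naive cells, by 0.92 to 2.67 with a median of 1.63, where 50.1% of all genes did so. TSA2 read 4.62 in memory and 1.95 in naive cells, and CCP1 3.00 in memory and 0.69 in naive cells. GSH1 read 2.16 in memory and 0.53 in naive cells, and GLC3 3.20 in memory and 2.19 in naive cells. USO1 was lower there as well (−0.66 in memory and 0.23 in naive cells), and DMA1 was not (−0.08 in memory and −0.11 in naive cells). Of the lists, all 58 general stress genes were higher in memory cells (median 0.74), and 21 of 145 ribosome biogenesis genes (median −0.25) and 6 of 133 ribosomal protein genes (median −0.28) were. Because both arrays stand against untreated cells, the like measure on the first design is the level difference, with medians of 0.62, −0.42 and 0.09 for these 3 lists. The ribosomal proteins thus had opposite signs on the 2 designs. The iron regulon was at 0.51 on the second design and 0.08 in the level difference, mitochondrial ribosomal proteins at 0.24 and 0.05, and the pentose phosphate list at 0.19 and −0.01.

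**Figure D5:**
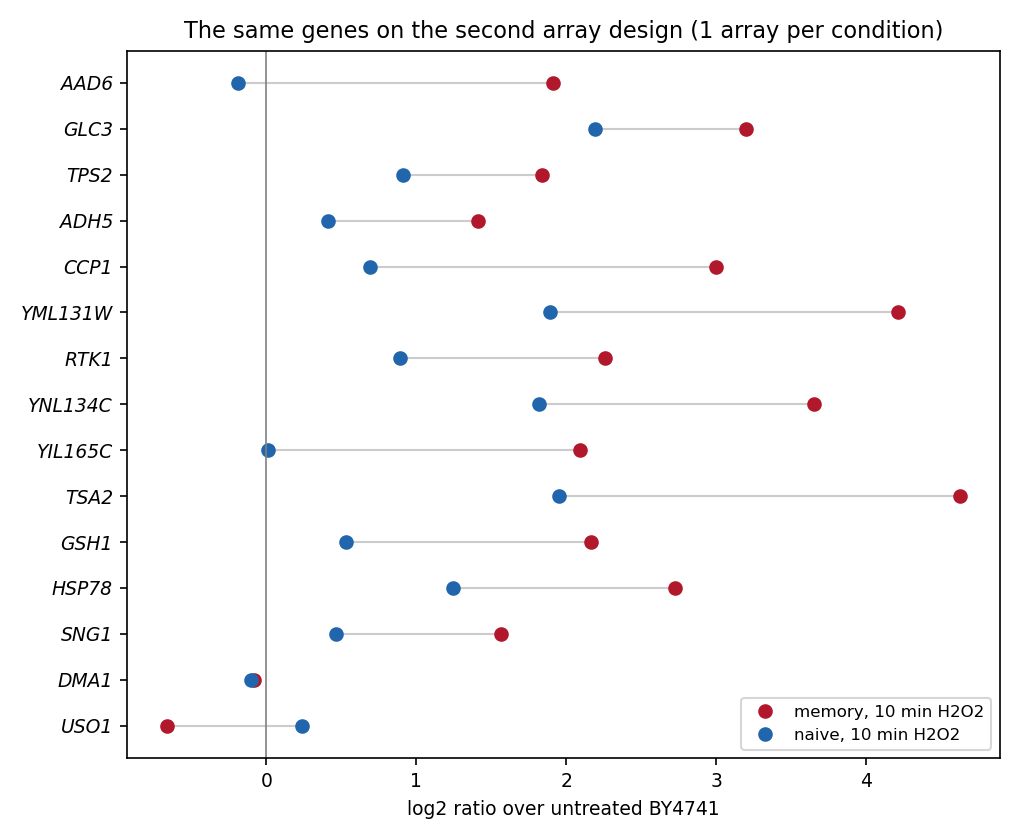
Log2 ratio over untreated BY4741 cells at 10 min H2O2 on the second array design for the 15 genes that passed on the first, memory cells (red) and naive cells (blue), 1 array each. Red lies right of blue for the 13 higher genes, left of it for USO1, and on it for DMA1.

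In the strain lacking NUP42, a nuclear pore protein gene, the same subtraction on the second design gave values between −1.03 (TSA2) and 0.16 (HSP78) for the 13 genes, with a median of −0.11 and 4 above 0. Per the labels both arrays of that strain were set against recovered cells, also the naive one, so these values are not built like those of BY4741. NUP42 itself had a difference of −0.80 ± 0.55 on the first design. Its 2 pretreated values were −0.18 and −0.17 and its naive values −0.26, −0.23 and 2.35, and without naive replicate 3 the difference was 0.07.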

How the data were processed

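The deposited values are log2 ratios of channel 2 (treated cells) over channel 1 (0 min cells), summarised by the authors to 1 value per gene; base and direction were inferred from the values and the channel labels, which show no dye swap. Scanner, background correction and dye normalization were not given in the sources used here, and no intensities came with the ratios, so dim spots could not be filtered and the number of arrays limits the precision. Group means were fitted over all 32 arrays of the first design with limma 3.58.1 (lmFit, eBayes) in R 4.3.3, 2-sided, with Benjamini-Hochberg adjustment over the genes tested. SEs and p-values use a spread pooled over all groups, and as separate cultures are not stated for the replicates, p-values measure only the spread between these samples, which may be technical. Symbols came from a RefSeq table (5457 matched). No sequence is shown. The comparison and the 33 gene lists were chosen with earlier results of these data known, and lists are described by counts and medians without a test. Named genes are those that passed, the 10 highest and 10 lowest without overlap, 57 chosen stress and growth genes (GPX2 and STL1 were not analysed here, GSY1 and GND2 had too few values), and the extremes of each list. The fit was tested on simulated data.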

Additional observations from a re-analysis of the deposited data

Results flagged for a closer look

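The responses of 15 genes differed between pretreated and naive cells by limma's test. In order of size among those higher in pretreated cells the differences (log2) were 2.10 for AAD6, 2.10 for GLC3, 1.72 for TPS2, 1.56 for ADH5, 1.45 for CCP1 and 1.42 for YML131W. They continued with 1.35 for RTK1, 1.32 for YNL134C, 1.27 for YIL165C, 1.21 for TSA2, 1.14 for GSH1, 1.06 for HSP78 and 0.75 for SNG1. Lower in pretreated cells were USO1 (−1.30) and DMA1 (−1.06).

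RRP36 (−1.60), HTA1 (−0.47) and MSN2 (0.34) had opposite signs on all pretreated and all naive arrays, but the test of the difference did not pass (adjusted p = 0.20, 0.55 and 0.70).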

How the results depend on the processing

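The number of genes past the threshold (15) was fragile. It was 18 with each array centred on its median, 16 with the slide as a random block, 15 with robust eBayes and 17 among fully valued genes. It was 0 with the 6 arrays alone, 45 with the print series as a block, 3 with all arrays scaled to a common spread, 168 with array weights and 8 with the spread of the 6 arrays equalised, a setting added after seeing the data. Leaving out a replicate gave between 0 and 93. With the replicate number as a block 39 genes passed, all 15 among them; deviations of same-numbered arrays correlated at 0.165, −0.00182 and 0.396 over 3860 genes, so the numbers were not taken as pairs. The level difference (0 genes) gave 57 with the print series as a block, 9 with the replicate block, 79 with scaling, 67 with array weights, and 0 to 18 with a replicate left out, the 18 without pretreated replicate 2. The change between 10 and 20 min (0 genes) gave 16 with the slide as a random block, 1 with array weights and 0 to 1 with a replicate left out. The 15 differences kept their direction in all 280 recomputed values, 124 of which missed the threshold. For the 14 genes whose groups did not overlap, leaving out arrays cannot turn the sign, and robust eBayes leaves every difference unchanged. The 280 values are thus not independent support for the direction. Why the counts moved was not tested, beyond the fewer arrays or genes that some settings hold.

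Signs turned for 16 other genes. With centring ENA1 was 0.025 and HSP26 0.0383, and with array weights HSP26 was 0.0357, GPH1 −0.17, GPP2 −0.10 and HXK1 −0.23. With scaling ENA1 was 0.11, ILV5 0.27 and SKN7 0.0352, with the equalised spread 0.069, 0.17 and 0.00991, and with the slide block GDB1 was −0.12 and SKN7 0.014. With a replicate left out, AHP1 ranged from −0.28 to 0.49, HSP26 from −0.36 to 0.30, HSP42 from −0.80 to 0.0517, MSN4 from −0.11 to 1.03, ILV5 from −0.48 to 0.31, RPS13 from −0.20 to 0.0283, RPL3 from −0.29 to 0.12 and ENA1 from −0.21 to 0.11. SSA4 ranged from −0.12 to 0.87, GPP2 from −0.055 to 0.22, SKN7 from −0.19 to 0.0050, NUP42 from −1.23 to 0.07 and HSF1 from −0.80 to 0.11. With 3 arrays a group, a difference that did not pass is not shown to be absent.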

Other observations

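Other lists gave these median differences (pretreated minus naive, log2; −0.07 over all tested genes), and none of their members passed. Of all 5241 tested genes, 2151 (41%) lay above 0 and 3090 below. Autophagy and vacuolar proteolysis genes were at 0.28 with 19 of 27 above 0, between −0.04 without naive replicate 1 and 0.38 without naive replicate 3. Ergosterol synthesis genes, which make the yeast membrane sterol, were at −0.22 with 25 of 28 below 0 (−0.14 without pretreated replicate 1 or 3). Phosphate regulon genes were at −0.21 with 14 of 22 below 0, a share near that of all genes. Their median was −0.08 without pretreated replicate 1, −0.42 without pretreated replicate 2 and −0.10 without pretreated replicate 3.

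The superoxide and metal defence list was at 0.14 with 6 of 7 genes above 0, and at −0.017 without pretreated replicate 3. Its median kept its sign under 15 of the 19 alternatives. Another 3 lists moved toward 0 without pretreated replicate 3. Translation factors and tRNA synthetases were at −0.15 with 50 of 54 below 0, and without that array at −0.017 with 23 of 52 above 0, when all genes were at −0.04. Nuclear pore genes were at −0.19 with 26 of 31 below 0, and without it at −0.085. Pentose phosphate and NADPH genes were at −0.13 with 10 of 16 below 0, a share near that of all genes, and without that array at −0.055.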
